A study of Bos taurus with 22 samples.

Results

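Ribosome biogenesis factors are the proteins that transcribe, cut, modify and fold ribosomal RNA in the nucleolus and carry the pre-ribosomal particles toward the cytoplasm. A written list of 56 gene symbols was looked up by name in the gene count table of the jejunal mucosa. Of these, 55 symbols were found, in 56 rows of 27570 genes, because WDR36 names 2 rows and IMP3 matched no gene name in the table used here. The 56 rows, called members below, comprised 21 of the small subunit (SSU) processome, 4 late 40S factors, 19 large subunit factors, 3 box C/D core proteins, 4 box H/ACA core proteins, 3 nucleolar phosphoproteins and 2 subunits of RNA polymerase I.

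The study asked how casein delivered past the rumen and injected glucagon-like peptide 2 (GLP-2), a gut hormone that promotes mucosal growth, change the jejunal transcriptome of cattle. The animals were Holstein steers of 10 to 12 months and 220 to 294.1 kg body weight (BW), and each steer received raw corn starch into the abomasum at 3.94 g/kg BW per day for 7 d. The 22 steers used here fell into 4 treatments: control (water infused, bovine serum albumin (BSA) vehicle injected, n = 5), GLP-2 (water infused, GLP-2 injected, n = 5), casein (casein infused, BSA injected, n = 6) and casein + GLP-2 (n = 6). Casein was infused at 1.30 g/kg BW per day and GLP-2 injected under the skin at 100 µg/kg BW per day. Strand-specific RNA-seq of whole mucosa gave deposited counts that totalled 8809666 to 28447810 per steer (median 12028560.5).

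In the nucleolus, RNA polymerase I transcribes a long precursor ribosomal RNA, on which the SSU processome assembles and cuts out the 18S rRNA region. Small nucleolar ribonucleoproteins of the box C/D type methylate the precursor, and those of the box H/ACA type convert uridine to pseudouridine. Large subunit factors then shape the 60S precursor, while late 40S factors finish the small subunit in the cytoplasm. In the gut, dividing crypt and lymphoid cells make many ribosomes, and mature enterocytes of the villus fewer.

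The mean level of the members over the 22 steers ran from 1.52 FPKM (fragments per kilobase of gene, scaled for library size) for RRP8, a nucleolar methyltransferase-like protein, to 98.5 ± 37.5 FPKM (SD, n = 22) for NCL, the nucleolar protein nucleolin. By mean FPKM of their members, the nucleolar phosphoproteins (39.6) and the box C/D core (36.9) stood highest, the box H/ACA core was at 23.0, and the late 40S factors (13.2), the large subunit factors (12.8), the SSU processome (12.7) and RNA polymerase I (4.18) were lower. The phosphoprotein mean rests on NCL, since NOLC1 was at 15.5 FPKM and NPM1 at 4.81 FPKM. The row named NPM1, nucleophosmin, lies on chromosome 16 and spans 1278 bases without an intron, whereas RefSeq's newer assembly places NPM1 on another chromosome, so the row may be a copy of the gene and its level is uncertain. All 56 members passed the filter on low counts in each comparison.

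With GLP-2 the ribosome biogenesis factors were lower as a group. Between 11 GLP-2 and 11 BSA steers, 55 of 56 members had a log2 fold change below 0, and 30 fell at an adjusted p of at most 0.05 (edgeR quasi-likelihood test, Benjamini-Hochberg adjustment over 13928 genes), while 0 rose. A further 12 were lower with an adjusted p between 0.05 and 0.1, a tendency, and 45 had an unadjusted p of at most 0.05. Over all genes tested, 8.37% were called lower and 5.13% higher, 14.2% were lower at an adjusted p of at most 0.1, 18.1% at an unadjusted p of at most 0.05, and 49.3% had a log2 fold change below 0. The median log2 fold change of the members was -0.59, against 0.0079 for all genes tested. In a bulk sample, fewer cells of a type and less RNA per cell cannot be told apart. Steers were assigned to treatments within 6 blocks of body weight. With the block as a term, 12 members were called lower by edgeR, against 2.43% of all genes, 41 reached an unadjusted p of at most 0.05, against 15.4%, and the median was -0.55. The 12 were RRP7A, RRP36, TSR1, BRIX1, MRTO4, NOC2L, NOP2, RRS1, WDR74, FBL, NOP56 and DKC1. Of the members described below, NOP58, NHP2, NCL, NOLC1, UTP4, RRP12 and NPM1 lost their call with the block, at edgeR adjusted p of 0.0555, 0.0556, 0.0562, 0.0586, 0.0593, 0.0643 and 0.0962, as did the remaining members called without it.

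**Figure D1:**
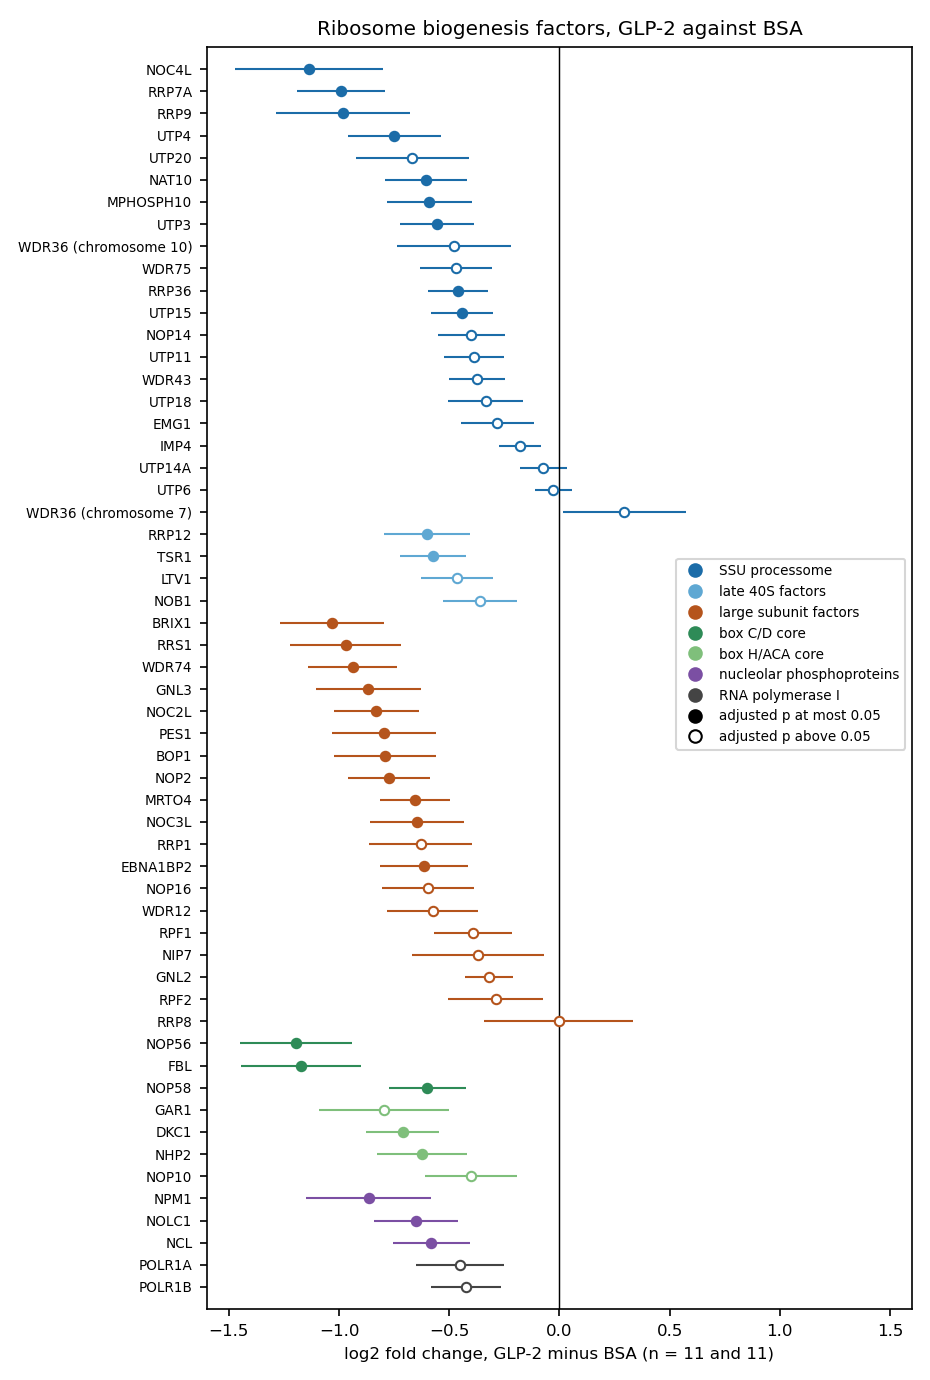
Log2 fold change of each of the 56 members between GLP-2 and BSA steers (x axis, point) with its SE (bar), ordered by functional group on the y axis. Filled points passed the edgeR test after adjustment. The points lie between -1.195 for NOP56 and 0.29 for the chromosome 7 row of WDR36, the 1 member above 0.

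The box C/D core proteins showed the largest median change of the 7 groups, at -1.17 on the log2 scale, with 3 of 3 members called lower. NOP56, a scaffold protein of the box C/D particle, lies on chromosome 13 (52519428 to 52524691, minus strand, build ARS-UCD1.2). In CPM (counts as a rate of the TMM-adjusted library total), NOP56 was at 166, 45.4, 145, 76.0 and 158 in the 5 control steers and at 71.9, 43.6, 80.2, 58.8 and 46.5 in the 5 GLP-2 steers. In the casein steers NOP56 ranged from 55.1 to 226 CPM, and in the casein + GLP-2 steers from 31.1 to 62.7 CPM. Thus 6 of 11 BSA steers were above the highest GLP-2 steer, and 3 of 11 GLP-2 steers were below the lowest BSA steer, so the groups overlapped in part. NOP56 fell by 1.20 on the log2 scale (SE 0.25, edgeR adjusted p = 0.0189), from 125 ± 62.9 to 54.8 ± 15.0 CPM (SD, n = 11 each). FBL, fibrillarin, is the methyltransferase of the same particle (chromosome 18, 49388469 to 49400788, minus strand). Its level was 94.3, 28.4, 137, 42.1 and 79.6 CPM in the control steers and 43.7, 20.1, 42.7, 35.9 and 24.0 CPM in the GLP-2 steers. The casein steers spanned 22.6 to 81.5 CPM and the casein + GLP-2 steers 14.1 to 34.0 CPM. FBL fell by 1.17 on the log2 scale (SE 0.27, edgeR adjusted p = 0.0202), with all 11 GLP-2 steers below the BSA median of 69.9 CPM. NOP58, the partner scaffold of NOP56, changed less, from 72.6 ± 24.1 to 48.2 ± 12.9 CPM, a log2 fold change of -0.60 (SE 0.17, edgeR adjusted p = 0.0310). The difference between NOP58 and its partners was not tested.

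**Figure D2:**
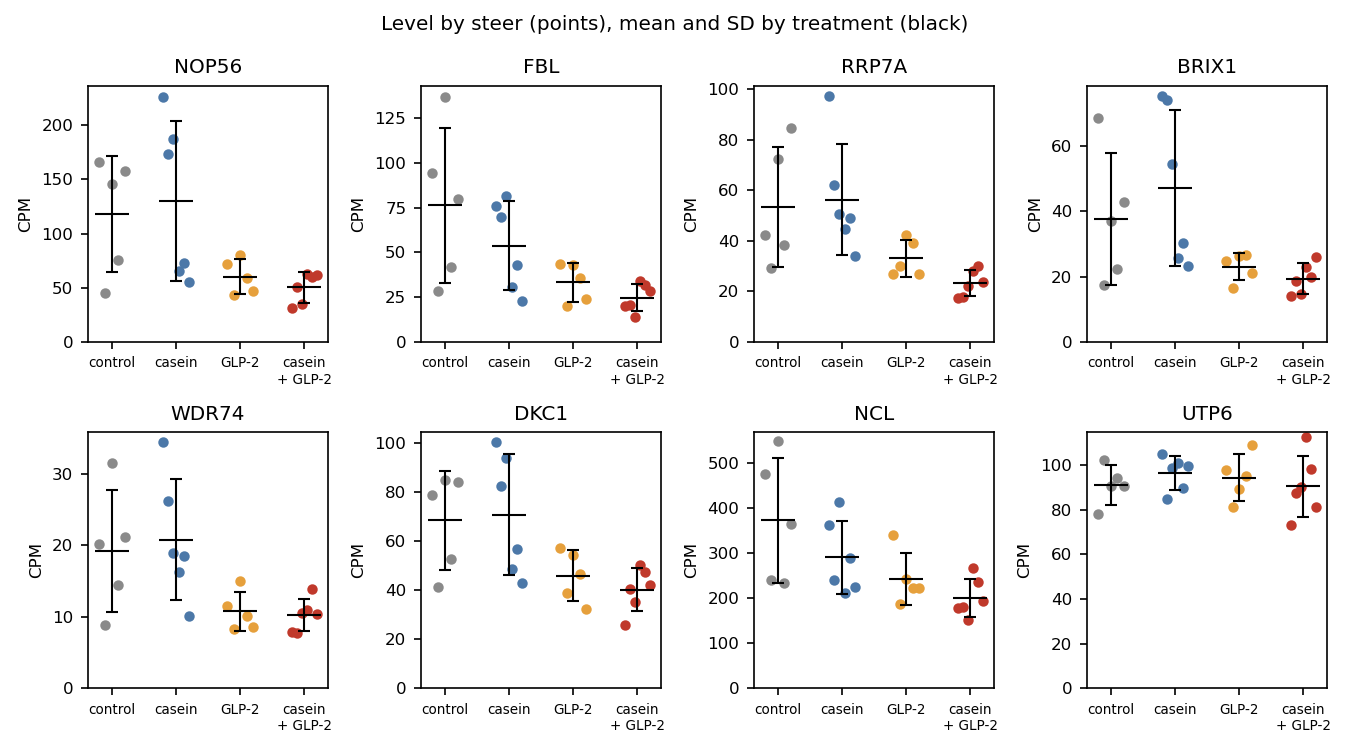
CPM of 8 members in each steer (y axis, from 0) by treatment (x axis), with the mean and SD of the treatment in black. NOP56, FBL, RRP7A, BRIX1, WDR74, DKC1 and NCL are lower on average in both GLP-2 treatments, with BSA steers spread widely, while UTP6 lies between 73.1 and 113 CPM in all steers.

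Among the box H/ACA core proteins, 2 of 4 were called lower, and the median log2 fold change was -0.67. DKC1, dyskerin, is the pseudouridine synthase of the particle and also a component of telomerase (chromosome X, 36210775 to 36223011, minus strand). DKC1 was at 79.0, 41.4, 85.1, 52.9 and 84.2 CPM in the control steers and at 57.2, 38.8, 54.3, 46.9 and 32.4 CPM in the GLP-2 steers. In the casein steers it ran from 42.8 to 101 CPM and in the casein + GLP-2 steers from 25.7 to 50.2 CPM. Each of the 11 GLP-2 steers was below the BSA median of 79.0 CPM, and 5 were below the lowest BSA steer. DKC1 fell by 0.71 on the log2 scale (SE 0.17, edgeR adjusted p = 0.0202). NHP2, an RNA-binding subunit, ranged from 15.1 to 55.2 CPM in BSA and from 12.2 to 36.2 CPM in GLP-2 steers, and fell from 34.7 ± 12.2 to 22.6 ± 7.07 CPM (log2 fold change -0.62, SE 0.20, edgeR adjusted p = 0.0453). GAR1, which contacts DKC1, had the largest log2 fold change of the 4, -0.80, with the widest SE of 0.30, and remained a tendency (edgeR adjusted p = 0.0682). NOP10, the smallest subunit, had a BSA median of 32.0 CPM (15.4 to 54.1) and a GLP-2 median of 23.7 CPM (14.9 to 35.5), and its change of -0.40 did not pass the test (edgeR adjusted p = 0.174).

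Of the 21 SSU processome members, 9 were called lower, 5 tended to be lower, and the median log2 fold change was -0.46. RRP7A, an early assembly factor of the small subunit (chromosome 5, 113436160 to 113444152, minus strand), had the smallest p of all members. RRP7A was at 42.3, 29.3, 72.6, 38.3 and 84.6 CPM in the control steers and at 26.9, 29.96, 42.5, 39.3 and 26.7 CPM in the GLP-2 steers. With casein alone it ranged from 34.0 to 97.4 CPM, and with casein + GLP-2 from 17.4 to 30.02 CPM. RRP7A fell by 0.99 on the log2 scale (SE 0.20, edgeR adjusted p = 0.0189). NOC4L, which pairs with NOP14 in the nucleolus, showed the largest change of the group at -1.14 (SE 0.34, edgeR adjusted p = 0.0324) from a low level of 3.42 FPKM. RRP9, which binds the U3 small nucleolar RNA that guides the processome, fell by 0.98 (edgeR adjusted p = 0.0383). UTP4, a subunit of the subcomplex that first binds the transcript, had a median of 15.5 CPM (8.03 to 21.7) in BSA and of 8.54 CPM (4.68 to 16.8) in GLP-2 steers. With 10 of 11 GLP-2 steers below the BSA median, it fell from 14.7 ± 4.85 to 8.78 ± 3.30 CPM (log2 fold change -0.75, SE 0.21, edgeR adjusted p = 0.0290).

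NAT10, an RNA acetyltransferase, and MPHOSPH10, a U3 particle component, had log2 fold changes of -0.61 and -0.59, and UTP3, RRP36 and UTP15 had -0.56, -0.46 and -0.44, all called lower by edgeR. The tendencies were UTP20, WDR75, NOP14, UTP11 and WDR43, between -0.67 and -0.37. EMG1, an rRNA methyltransferase, and IMP4 of the U3 particle did not pass the test at -0.28 and -0.18, and UTP18 was at -0.34. At the other end stood UTP6 and UTP14A, SSU processome subunits that with IMP4 held the 3 highest mean levels per length of the group (54.2 FPKM for UTP14A, 43.5 for IMP4 and 25.9 for UTP6). UTP6 ranged from 77.8 to 105 CPM (median 94.2) in BSA steers and from 73.1 to 113 CPM (median 90.2) in GLP-2 steers, with a log2 fold change of -0.03 (SE 0.08, edgeR adjusted p = 0.835). UTP14A ranged from 117 to 184 CPM (median 135) in BSA steers and from 108 to 177 CPM (median 130) in GLP-2 steers, and its log2 fold change was -0.07 (SE 0.11, edgeR adjusted p = 0.647). For both, the groups overlapped almost wholly.

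WDR36, a scaffold repeat protein of the processome, was listed at 2 loci. The row on chromosome 7 (110165706 to 110206187) had a median of 4.33 CPM (0.914 to 9.29) in BSA steers and of 5.98 CPM (3.33 to 9.26) in GLP-2 steers. Its log2 fold change of 0.29 (SE 0.28, edgeR adjusted p = 0.459) was the only one above 0 among the members. The row on chromosome 10 (93774543 to 93813580) was at -0.48 (SE 0.26, edgeR adjusted p = 0.191). The sequences of the 2 rows were not compared, so whether they share reads was not tested, and neither row passed the test.

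Late 40S factors were called lower in 2 of 4 cases, with a median log2 fold change of -0.52. TSR1, a GTPase-like factor of late pre-40S particles, had a BSA median of 32.3 CPM (17.4 to 38.9) and a GLP-2 median of 18.2 CPM (14.7 to 30.3). All 11 GLP-2 steers were below the BSA median, and TSR1 fell by 0.57 on the log2 scale (SE 0.15, edgeR adjusted p = 0.0236). RRP12, needed for export of pre-ribosomal particles, fell by 0.60 (SE 0.20, edgeR adjusted p = 0.0443), from a BSA median of 30.4 CPM (21.2 to 65.2) to 26.2 CPM (14.3 to 34.5). LTV1, an adaptor of the 40S particle, was a tendency at -0.46. NOB1, the endonuclease that makes the final cut of 18S rRNA, had a median of 69.0 CPM (38.8 to 94.7) in BSA steers and of 50.5 CPM (34.3 to 63.8) in GLP-2 steers. Although 11 of 11 GLP-2 steers were below the BSA median, the log2 fold change of NOB1, -0.36 (SE 0.17), did not pass the test (edgeR adjusted p = 0.127).

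Of the 19 large subunit factors, 11 were called lower and 4 tended to be lower, with a median log2 fold change of -0.65. BRIX1, an early 60S assembly factor (chromosome 20, 39219143 to 39228770, minus strand), was at 68.7, 17.6, 37.0, 22.4 and 43.1 CPM in the control steers. In the GLP-2 steers BRIX1 was at 24.8, 16.7, 26.4, 26.6 and 21.1 CPM. The casein steers ran from 23.2 to 75.5 CPM and the casein + GLP-2 steers from 14.0 to 26.0 CPM. Of 11 BSA steers, 7 were above the highest GLP-2 steer, and the SD was 21.8 CPM in BSA and 4.70 CPM in GLP-2 steers. BRIX1 fell by 1.03 on the log2 scale (SE 0.23, edgeR adjusted p = 0.0202). WDR74, which acts with an ATPase on the 60S precursor (chromosome 29, 41141424 to 41149376, minus strand), was at 20.1, 8.82, 31.6, 14.4 and 21.3 CPM in the control steers. In the GLP-2 steers it was at 11.6, 8.37, 15.1, 10.2 and 8.62 CPM, and across both infusions 8 of 11 BSA steers were above the highest GLP-2 steer. WDR74 fell by 0.94 (SE 0.20, edgeR adjusted p = 0.0189).

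MRTO4, a relative of the ribosomal stalk protein P0 that holds its place during assembly, ranged from 36.8 to 107 CPM in BSA and from 28.2 to 46.8 CPM in GLP-2 steers. Of 11 BSA steers, 9 were above the highest GLP-2 steer at 46.8 CPM, and the log2 fold change was -0.66 (SE 0.16, edgeR adjusted p = 0.0218). PES1 and BOP1, which form a complex with WDR12 in 60S maturation, were called lower at -0.80 and -0.79, while WDR12 itself was a tendency at -0.57 (edgeR adjusted p = 0.0599). GNL3, nucleostemin, a nucleolar GTPase abundant in dividing cells, was called lower at -0.87, from a BSA median of 39.3 CPM to a GLP-2 median of 29.2 CPM. RRS1 was called lower at -0.97, NOC2L at -0.83, the rRNA methyltransferase NOP2 at -0.77, NOC3L at -0.65 and EBNA1BP2 at -0.61. RRP1 and NOP16 were tendencies at -0.63 and -0.60, and GNL2 at -0.32. RPF1, NIP7 and RPF2 did not pass the test, at -0.39, -0.37 and -0.29. RRP8 was the least changed, with a median of 2.45 CPM (0.914 to 4.58) in BSA steers and of 2.25 CPM (0.945 to 6.23) in GLP-2 steers, and a wide SE of 0.34 around a log2 fold change of -0.00367 (edgeR adjusted p = 0.995).

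The 3 nucleolar phosphoproteins were called lower. NCL, nucleolin, binds nascent ribosomal RNA and was the most abundant member (chromosome 2, 119226977 to 119236929, minus strand). NCL was at 475, 241, 548, 235 and 366 CPM in the control steers and at 341, 188, 242, 222 and 223 CPM in the GLP-2 steers. The casein steers ran from 212 to 414 CPM and the casein + GLP-2 steers from 153 to 266 CPM. NCL fell by 0.58 on the log2 scale (SE 0.17, edgeR adjusted p = 0.0342), with 5 of 11 GLP-2 steers below the lowest BSA steer. NOLC1, a chaperone of small nucleolar particles, ranged from 28.3 to 71.2 CPM in BSA and from 18.7 to 54.5 CPM in GLP-2 steers, and fell from 48.6 ± 15.5 to 31.1 ± 10.7 CPM (log2 fold change -0.65, SE 0.19, edgeR adjusted p = 0.0324). The row named NPM1 had a log2 fold change of -0.87 (SE 0.28, edgeR adjusted p = 0.0454), from a BSA median of 6.44 CPM (2.47 to 17.5) to 4.52 CPM (2.57 to 6.12).

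The 2 large subunits of RNA polymerase I did not pass the test. POLR1A had a BSA median of 22.2 CPM (13.4 to 41.2) and a GLP-2 median of 19.9 CPM (11.7 to 28.2), with a log2 fold change of -0.45 (SE 0.20, edgeR adjusted p = 0.112). POLR1B was a tendency at -0.42 (SE 0.16, edgeR adjusted p = 0.0708), with medians of 19.2 CPM (14.5 to 32.8) and 15.3 CPM (10.4 to 24.2). In both genes 3 GLP-2 steers were below every BSA steer and 3 BSA steers above every GLP-2 steer.

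Of the rest of the pathway, 100 genes on 4 written lists were tested, with a median log2 fold change of -0.38. By edgeR 36 were called lower with GLP-2 and 0 higher, against 8.37% and 5.13% of all genes tested. The count was 10 of 34 other SSU factors, where SNU13, a box C/D and U3 protein, was at -0.80 and DIMT1, a dimethyltransferase of 18S rRNA, at -0.59. Among 39 other large subunit factors it was 16, with the GTPase GTPBP4 at -0.60 and SURF6 at -1.24. For RNA polymerase I and its factors it was 4 of 13, with TCOF1, treacle, at -0.91 and the subunit POLR1E at -0.63. For the exosome, the RNase complex that trims rRNA ends, it was 6 of 14, with EXOSC6 at -1.06 and EXOSC4 at -0.94. Each of these 8 genes, the pair with the smallest p of its list, was called lower.

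Member levels also varied between steers of the same treatment. By mean log2 CPM of the 56 members, the 7 highest steers were all BSA and the 5 lowest all GLP-2, and the other 10 were mixed. The mean was 4.80 ± 0.40 in BSA and 4.28 ± 0.30 in GLP-2 steers (SD, n = 11 each), with ranges of 4.26 to 5.30 and 3.81 to 4.70. The highest value of a member was in a BSA steer for 53 of 56 members, and the lowest in a GLP-2 steer for 49. Neither count was made over all genes. Casein replicate 1 alone held 19 of the highest values, and casein + GLP-2 replicate 1 held 23 of the lowest. Control replicates 2 and 4 and casein replicates 4 and 6 lay among the GLP-2 steers, at 4.26 to 4.47. All 11 GLP-2 steers were below the BSA median for 17 of 56 members, as for 7.12% of all genes tested. For 0 members was every GLP-2 steer below every BSA steer, and this held for 0% of all genes tested.

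**Figure D3:**
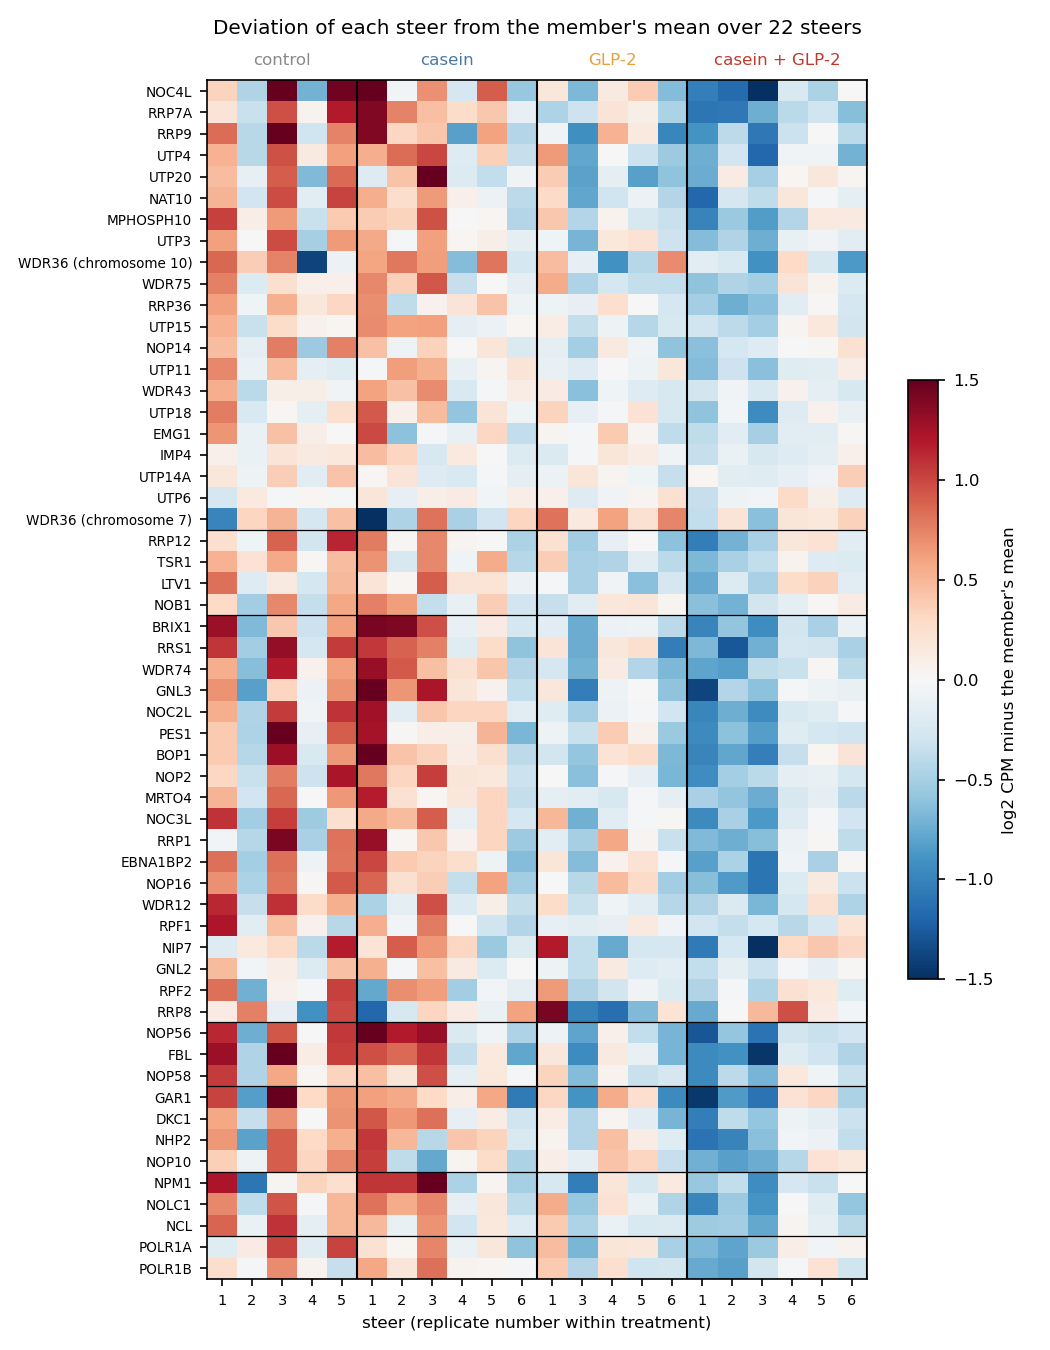
Log2 CPM of each member (rows, by functional group) in each steer (columns, by treatment and replicate number) minus the mean of that member over 22 steers. Control replicates 1, 3 and 5 and casein replicates 1 and 3 are high in most members, and casein + GLP-2 replicates 1 and 3 are low, with 1 member each above its own mean.

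Marker genes of other cells moved with the same comparison, in which 8.37% of all genes were called lower and 5.13% higher. At an unadjusted p of at most 0.05 in edgeR, 18.1% of all genes were lower. Of the B cell follicle markers, 9 of 9 tested were called lower with GLP-2 by edgeR, and the summed level was 23.4 to 2179 CPM in BSA and 20.1 to 72.5 CPM in GLP-2 steers. PAX5, a defining B cell factor, had 0 counts in 9 of 22 steers, and FCER2 in 1. Of 10 proliferation markers, 4 were called lower and 7 were lower at an unadjusted p of at most 0.05 in edgeR. Their sum was 206 to 915 CPM in BSA and 183 to 755 CPM in GLP-2 steers. The 9 enterocyte markers had log2 fold changes above 0, with a median of 0.93, but 0 were called at an adjusted p of at most 0.05. At an unadjusted p of at most 0.05 in edgeR, 4 were higher. The share of all genes higher at that p was not counted. The enterocyte sum was 1905 to 67957 CPM in BSA and 16027 to 101758 CPM in GLP-2 steers. Plasma cell markers were called lower in 3 of 6 cases (282 to 5645 CPM in BSA, 193 to 2080 CPM in GLP-2 steers). T cell markers were called lower in 1 of 7 (545 to 1877 and 735 to 1517 CPM). Smooth muscle markers were called in 0 of 7 (54.5 to 1129 and 45.2 to 659 CPM). At an unadjusted p of at most 0.05 in edgeR, 5 plasma cell, 2 T cell and 2 smooth muscle markers were lower. The 5 steers with the highest member mean were also the 5 with the most follicle marker counts (181 to 2179 CPM). Control replicate 4, next in follicle markers at 158 CPM, had a member mean of 4.40. Of these 5 steers, 4 were among the 5 highest in proliferation, 4 in plasma cell, 3 in smooth muscle and 1 in T cell markers. Among the 5 lowest were 4 of them in enterocyte, 1 in smooth muscle and 1 in T cell markers. The 5 steers with the lowest member mean had 20.1 to 29.3 CPM of follicle markers and 51784 to 101758 CPM of enterocyte markers.

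**Figure D4:**
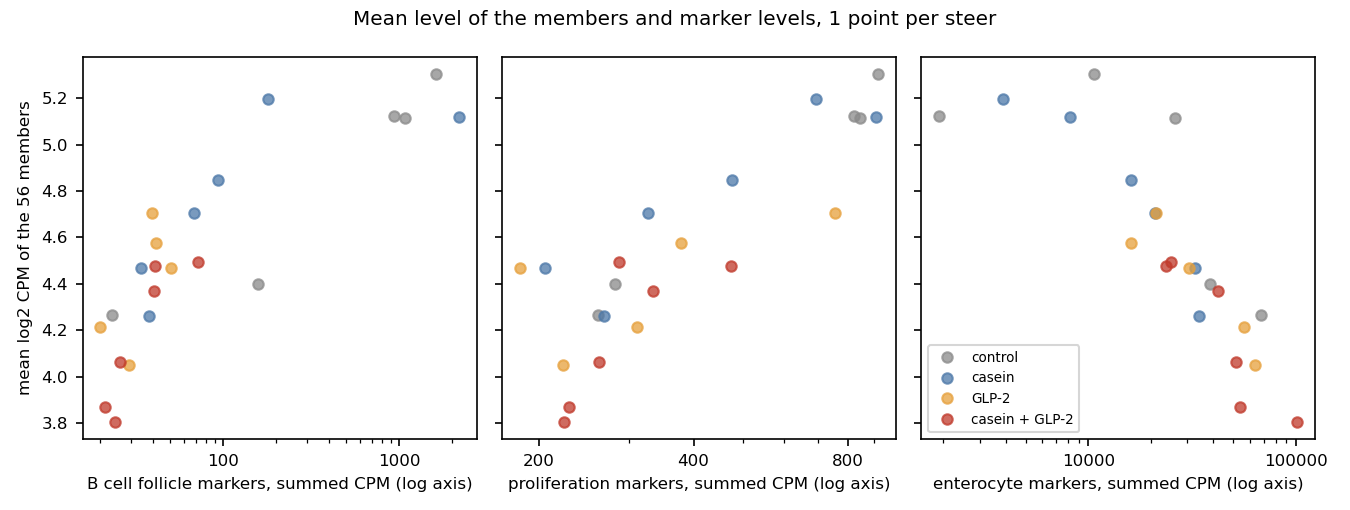
Mean log2 CPM of the 56 members (y axis) against the summed CPM (log axis) of B cell follicle, proliferation and enterocyte markers, 1 point per steer, coloured by treatment. The 5 steers with the highest member mean are the 5 highest in follicle markers. Of them, 4 are among the 5 highest in proliferation and 4 among the 5 lowest in enterocyte markers.

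The change with GLP-2 was smaller when a marker level stood in the model. With the follicle score (mean log2 CPM of the marker list) as a covariate, 0 members were called by edgeR, 3 had an unadjusted p of at most 0.05 (RRP7A, WDR74 and BRIX1, named for their small number), 47 of 56 were below 0 and the median was -0.12. In that model 0 of all 13928 genes were called and 1.34% were lower at an unadjusted p of at most 0.05. The median over all genes was 0.018 there, and the share of all genes below 0 was not counted. With the proliferation score, 0 members were called, 13 had an unadjusted p of at most 0.05 and the median was -0.22, and with the enterocyte score 0 were called, 12 had such a p and the median was -0.25. Of all genes, 0% were called in either model, and 4.22% and 5.01% were lower at an unadjusted p of at most 0.05. With the smooth muscle score 17 members were called, against 5.37% of all genes, 42 reached an unadjusted p of at most 0.05, against 14.8%, and the median was -0.49. The enterocyte and smooth muscle scores were added after the data were seen. The 30 members called lower had log2 fold changes below 0 in each of these models, with a median of -0.23 with the follicle score. They were chosen by their fall in these same steers, so their sign gives no separate support. The scores themselves were not tested between injections, but the 9 tested follicle markers were all called lower by edgeR (median log2 fold change -4.46). Summed follicle markers were at 582 ± 757 CPM in BSA and 37.0 ± 15.4 CPM in GLP-2 steers (SD, n = 11 each). Where a score shifts with the injection, the model cannot tell the 2 apart.

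The count of 30 called members moved with single libraries. Without casein replicate 3 and control replicate 3, the steers highest in follicle markers (2179 and 1611 summed CPM), 0 members were called by edgeR, the smallest adjusted p was 0.0682, 41 were lower at an unadjusted p of at most 0.05 and the median was -0.49. In that model, chosen after the data were seen, 0 of all 14068 genes were called and 15.6% were lower at an unadjusted p of at most 0.05. Leaving out each steer in turn gave 11 to 42 called members, with medians from -0.68 to -0.53, while 4.52% to 25% of all genes were called in either direction. The count was 11 without casein + GLP-2 replicate 3 or GLP-2 replicate 3, 12 without control replicate 3 or GLP-2 replicate 6, 13 without casein replicate 1, casein + GLP-2 replicate 1 or control replicate 1, 15 without casein + GLP-2 replicate 2, 16 without control replicate 5 and 19 without casein replicate 3.

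GLP-2 was also compared within each infusion, in 1 edgeR model of the 4 treatments and 15086 genes. Within water infusion (GLP-2 against control, n = 5 each), 54 of 56 members were below 0, as were 47.4% of all genes, and the median log2 fold change was -0.51, but 0 were called, with a smallest adjusted p of 0.218. At an unadjusted p of at most 0.05, 19 members were lower, against 8.35% of all genes tested, while 0% were called. FBL had the smallest p, at -1.196 (SE 0.40). Within casein infusion (casein + GLP-2 against casein, n = 6 each), 53 of 56 were below 0 (51.9% of all genes), the median was -0.60, 0 were called with a smallest adjusted p of 0.118, and 35 were lower at an unadjusted p of at most 0.05, against 14.2% of all genes. RRP7A was at -1.28 (SE 0.27), BRIX1 at -1.29 (SE 0.33) and NOP56 at -1.37 (SE 0.36). DESeq2's Wald test called 13 members lower within casein, against 4.23% of all genes lower, and 0 within water, against 1.6%. Both contrasts were below 0 for 52 members, a count that was not made over all genes.

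**Figure D5:**
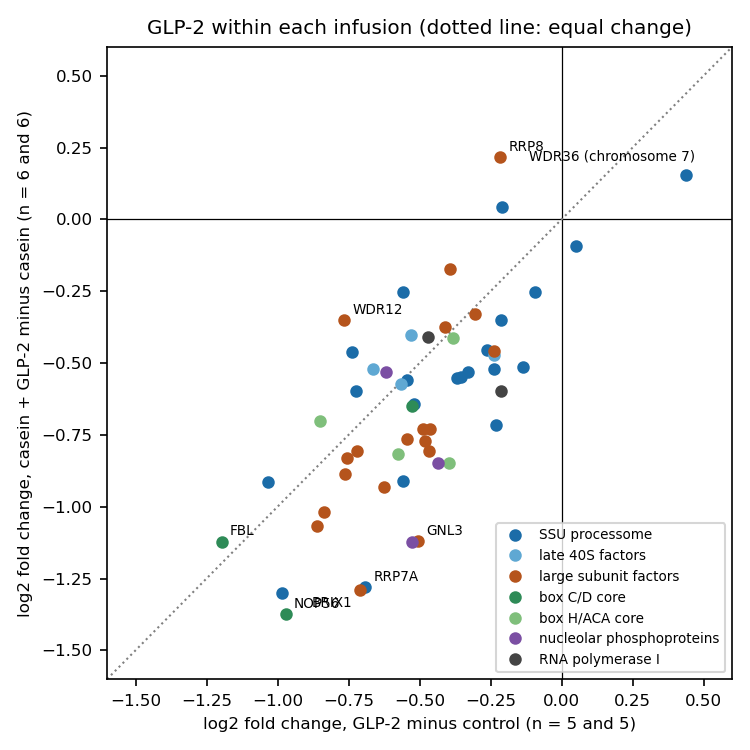
Log2 fold change of each member with GLP-2 within water infusion (x axis) and within casein infusion (y axis), coloured by functional group, with a dotted line of equal change. Most points lie below 0 on both axes, and 41 of 56 lie below the dotted line.

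The difference of these GLP-2 effects, the casein × GLP-2 interaction, did not pass the test for any member. By edgeR 0 members were called, 0 had an unadjusted p of at most 0.05, and the smallest adjusted p was 0.996, while of all genes 0% were called and 2.59% were lower at an unadjusted p of at most 0.05. The estimates ran from -0.62 (GNL3, SE 0.49) to 0.43 (RRP8), with a median of -0.18 and 41 of 56 below 0 (52.7% of all genes), and RRP7A was at -0.59 (SE 0.39). DESeq2 also called 0. These SE exceeded those of GLP-2 against BSA (0.20 for RRP7A, 0.24 for GNL3), and a p that misses the threshold does not show that the effects were alike.

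Casein left the members without a called change. Between 12 casein and 10 water steers, 45 of 56 members were below 0 (49.3% of all genes) with a median log2 fold change of -0.14, and 0 were called by edgeR, as were 0% of the 14096 genes tested. Also 0 had an unadjusted p of at most 0.05, against 1.84% of all genes lower at that p, and DESeq2 called 0. NOP10 had the smallest p, at -0.43 (SE 0.22). The mean log2 CPM of the members was 4.47 ± 0.44 (SD, n = 12) in casein and 4.62 ± 0.43 (SD, n = 10) in water steers. In the absence of GLP-2, casein against control gave a median of -0.07, 35 of 56 members below 0 (48.6% of all genes) and 0 called (0% of all genes). WDR12 alone was lower at an unadjusted p of at most 0.05 (-0.57, SE 0.27), against 2.76% of all genes. With GLP-2 in both groups, casein + GLP-2 against GLP-2 gave 50 of 56 members below 0 (51.4% of all genes), a median of -0.25, 0 called (0% of all genes) and 0 at an unadjusted p of at most 0.05 (1.79% of all genes lower). DESeq2 called 0 members in either contrast. By treatment, the mean log2 CPM of the members was 4.84 ± 0.47 in control, 4.77 ± 0.36 in casein, 4.40 ± 0.27 in GLP-2 and 4.18 ± 0.31 in casein + GLP-2 steers.

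The members are scattered over the genome. They lie on 23 chromosomes, with at most 6 on 1, and 6 pairs of members lie within 500 kb of each other by the deposited coordinates. UTP4, NIP7 and NOB1 on chromosome 18 had log2 fold changes with GLP-2 of -0.75, -0.37 and -0.36, of which only UTP4 was called. WDR12 and NOP58 on chromosome 2 were at -0.57 and -0.60, NOP2 and EMG1 on chromosome 5 at -0.77 and -0.28, and UTP11 and GNL2 on chromosome 3 at -0.39 and -0.32. In each of the first 3 sets 1 gene was called and its neighbours were not. Differences between neighbours were not tested, and the changes of WDR12 and NOP58 were nearly equal.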

How the data were processed

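RNA-seq of the jejunal mucosa was analysed for 22 steers. The authors aligned reads to ARS-UCD1.2 with HISAT2 2.0.5, counted them per gene with featureCounts 1.5.0-p3 and deposited raw counts. FPKM values, deposited beside them, equal count per gene length scaled by a constant per steer. Those constants (0.798 to 1.37) match DESeq2 size factors within 0.573%. FPKM served for levels between genes and, with limma on log2(FPKM + 1) or log2(FPKM + 0.1), as an alternative.

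Counts were analysed in R 4.3.3 with edgeR 4.0.16 (filterByExpr, minimum count 10, TMM, quasi-likelihood test, Benjamini-Hochberg adjustment over all genes tested, threshold 0.05, tendency up to 0.1). The 2 main effects (by injection and by infusion) pooled treatments as in the study, and other contrasts came from 1 model of 4 treatments. CPM used TMM-scaled library sizes, and log2 CPM a prior count of 2. The steers are separate animals, and 0 pairs of libraries within a treatment were identical. The replicate numbers are blocks of body weight. After treatment means were removed, residuals of 30 same-block pairs correlated at 0.0292 on average and those of 151 remaining pairs at -0.00588. Of 22 steers, 5 correlated best with their own block. The block was kept as an alternative, although steers were assigned to treatments within blocks. These correlations cover all genes tested and do not describe the members alone. The main tests leave the block out.

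The members, pathway lists, marker lists and tests were chosen with earlier results of these data known. Values by steer were given, in each functional group, for the pair of members with the smallest p and the 1 with the largest p between GLP-2 and BSA, for the most abundant member and for any member above 0. Of the pathway lists, 100 of 105 written symbols were found. Alternatives were DESeq2 1.42.0 (Wald test, or its size factors in edgeR), other filters, the block, marker scores or the other factor as covariates, limma 3.58.1, a threshold of 0.1 and leaving out steers. In simulated data for GLP-2 against BSA with 13756 genes, the edgeR test called 52 of 88 genes changed by a log2 value of 1. It called 104 of 111 changed by 2, and the whole simulation gave 4 false calls. Genes were simulated independently of each other, whereas the members moved together by steer. The simulation also changed far fewer genes than were called here. Its changes were of 1 or 2 on the log2 scale, whereas the members had a median of -0.59. These rates therefore do not measure the error among the called members. Gene symbols were those of the table. Figures were drawn with matplotlib 3.10.9.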

Additional observations from a re-analysis of the deposited data

How the results depend on the processing

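Between GLP-2 and BSA the count of 30 called members stayed within 1.5 times under DESeq2 size factors, no filter, at least 10 counts in every steer, the DESeq2 Wald test, both limma fits and infusion as a covariate. The share of all genes called under these settings is not given here. A threshold of 0.1 can only keep or add calls, so it does not check the count. The count moved to 12 with the replicate block and to 17 with the smooth muscle score. It moved to 0 with the follicle score, with the proliferation score, with the enterocyte score and without the 2 steers highest in follicle markers. Leaving out 1 steer gave 11 to 42. The cause was not tested. GLP-2 against control gave 0 to 1 when 1 steer was left out (1 without control replicate 2), and its median log2 fold change turned to 0.14 with the follicle score. Casein + GLP-2 against casein gave 13 by the DESeq2 Wald test. In the other 4 comparisons the count was 0 under every alternative run.

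Of the 56 members, 47 were below 0 with the follicle score, a count that was not made over all genes. Those above 0 included WDR36 on chromosome 7 at 0.57, RPF2 at 0.27, WDR12 at 0.17 and UTP20 at 0.11, none of them called. Among the members given by steer, UTP14A was at 0.0819 with the follicle, 0.0147 with the proliferation and 0.0251 with the enterocyte score. RRP8 was at 0.00282 with the block, 0.0474 with the follicle, 0.11 with the proliferation, 0.0224 with the smooth muscle and 0.0653 with the enterocyte score, at 0.0038 with infusion as a covariate, and at -0.24 to 0.11 when 1 steer was left out. POLR1A was at 0.0457 with the follicle score. The replicate block moved the call in no comparison but GLP-2 against BSA. When 1 steer was left out, NHP2 and NPM1 lost their call in 14 of 22 fits each, RRP12 in 11, NCL and NOLC1 in 10 each, NOP58 in 7 and UTP4 in 5, with adjusted p up to 0.0872 in edgeR. RRP7A, TSR1, BRIX1, MRTO4, WDR74, FBL, NOP56 and DKC1 lost it in 0 of 22. Mean FPKM of the 7 groups differed by less than the spread between steers when taken as TMM-scaled counts per kilobase. At 5 or 6 steers per treatment the SE of the interaction limits what could be detected.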
